A study of Mus musculus with 12 samples.

Results

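The hypoxia-inducible factors (HIFs) and a set of their regulators and targets were followed at the RNA level in subcutaneous white adipose tissue (scWAT) of mice. The 10 genes described here were picked by symbol: the oxygen-regulated subunits *Hif1a*, *Epas1* and *Hif3a*, their dimer partner *Arnt*, the prolyl hydroxylases *Egln1* and *Egln3*, and the targets *Vegfa*, *Ankrd37*, *Ndrg1* and *Ddit4*. These are 10 of the 55401 genes counted, and all 10 were among the 16540 genes that passed the filter on low counts. RNA-seq was performed on 12 libraries of scWAT from female mice that were 16 weeks old when treatment began, in 4 groups of 3 libraries. Wild-type mice carried *Jmjd1a* +/+, and *Jmjd1a* HY/HY mice, termed mutants below, carried a histidine-to-tyrosine change in the Jumonji domain on both alleles, made by genome editing in C57BL/6J eggs. The study describes JMJD1A of these mice as lacking histone demethylase activity throughout the animal. Its enzyme assay was of a human protein with phenylalanine in place of that histidine. All mice were caged singly and first acclimated to 30°C, and were then kept for 1 week at 30°C, where little heat production is needed, or at 8°C. The allele is present in every tissue, so the data do not separate effects within fat from those of other organs, and the study made its female cohorts from a single founder line.

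HIFs are heterodimers of an oxygen-regulated alpha subunit and ARNT. In oxygen, prolyl hydroxylases such as EGLN1 and EGLN3 mark the alpha subunits for destruction through VHL, so that HIF activity is set mainly at the level of the protein, which RNA counts do not measure. At low oxygen the dimer binds DNA at the core letters ACGTG or GCGTG and raises transcription of genes for glycolysis and vessel growth, and of *Egln1* and *Egln3* themselves. In adipose tissue, HIF activity has been studied in obesity, where fat can become poorly oxygenated, and in thermogenic fat, whose mitochondria consume much oxygen.

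The 250 bases before the annotated start are shown for *Egln1* and *Ankrd37*, the members that changed with cold, and for *Egln3* and *Vegfa*, a paralogue and a target that did not pass the same limits. Sequences are from RefSeq on GRCm38.p6, read 5′ to 3′ on the strand of the gene, which is the minus strand in each case, with the core letters ACGTG or GCGTG on either strand in capitals.
Egln1, chr8:124949255-124949504: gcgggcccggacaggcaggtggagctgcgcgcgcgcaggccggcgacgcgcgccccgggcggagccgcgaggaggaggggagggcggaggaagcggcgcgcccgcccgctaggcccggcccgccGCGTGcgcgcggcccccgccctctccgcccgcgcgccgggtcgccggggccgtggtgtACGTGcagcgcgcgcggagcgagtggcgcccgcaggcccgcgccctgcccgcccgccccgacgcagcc
Ankrd37, chr8:45999851-46000100: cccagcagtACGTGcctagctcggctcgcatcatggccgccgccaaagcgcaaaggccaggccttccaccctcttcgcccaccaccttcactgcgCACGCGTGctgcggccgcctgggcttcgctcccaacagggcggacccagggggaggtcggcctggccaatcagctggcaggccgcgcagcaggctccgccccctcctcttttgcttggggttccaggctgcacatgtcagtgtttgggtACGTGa
Egln3, chr12:54203875-54204124: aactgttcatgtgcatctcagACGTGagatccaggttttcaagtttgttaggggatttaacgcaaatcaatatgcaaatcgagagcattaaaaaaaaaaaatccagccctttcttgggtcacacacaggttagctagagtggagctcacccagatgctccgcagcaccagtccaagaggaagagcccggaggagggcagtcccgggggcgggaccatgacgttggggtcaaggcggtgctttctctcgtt
Vegfa, chr17:46032378-46032627: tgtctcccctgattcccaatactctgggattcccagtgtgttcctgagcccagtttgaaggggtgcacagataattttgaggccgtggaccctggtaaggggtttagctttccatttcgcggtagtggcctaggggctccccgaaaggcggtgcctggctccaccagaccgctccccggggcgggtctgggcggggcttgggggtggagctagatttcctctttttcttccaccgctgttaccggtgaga
The *Egln1* stretch is 86.0% G or C and holds GCGTG and ACGTG on the strand of the gene, at positions -126 and -68 counted from the start. In *Ankrd37* there are 4 matches, at positions -241, -155, -152 and -6, and those at -155 and -152 lie on opposite strands and overlap. *Egln3* holds 1 match, and the stretch shown for *Vegfa*, which lies before the outermost start of the gene, holds none. The RefSeq table had windows for 8 of the 10 members, *Epas1* and *Ndrg1* not being among them, and 9 windows in all because *Vegfa* had a second, internal start. Among the windows not shown, *Hif1a* held 3 matches in the 250 bases, and *Hif3a*, *Ddit4* and the internal start of *Vegfa* held 2 each. *Arnt* held 1. These members were not called with cold, and *Egln1*, which was, held 2. Of the 9 windows, 8 held at least 1 match in the 250 bases, against 38.6% of all 32851 windows in the table, and every member but *Vegfa* held it at its only listed start. The share over all windows was not matched for G and C content, which was 50.8% to 86% in the members' stretches, so the 2 shares are not like for like. These letters are short, and a match does not show that a factor binds there.

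Counts of read pairs on the sense strand of genes totalled 13592629 to 26352081 per library, the 6 libraries of 8°C being the 6 smallest. Levels below are in CPM, the usual measure of a count relative to the size of its library, with library sizes scaled by TMM, a method that aligns the bulk of genes between libraries. Summed markers of white adipocytes were at 22006 to 48349 CPM in every library. The third library of mutants at 30°C stood apart from its group with 16.8% of counts on mitochondrial DNA against 9.32% and 9.76%, and the second of wild-type mice at 30°C held skeletal muscle markers at 1206 CPM, where the other 11 libraries reached at most 22.6. Because the allele changes a residue, the count of its gene, named *Kdm3a* in the files, does not check the genotype. Its mean ± SD (n = 3) was 49.3 ± 11.2 CPM in wild-type mice at 30°C, 39.9 ± 3.78 at 8°C, and 45.5 ± 7.68 and 44.8 ± 1.40 in mutants.

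At 30°C in wild-type mice the members spanned a wide range of levels per length, given here as CPM per kilobase of exon (mean ± SD, n = 3, approximate because exon lengths were taken from an older annotation). *Epas1*, which encodes HIF-2α, was at 73.9 ± 20.05 and *Vegfa* at 65.2 ± 6.40, and these did not differ beyond their spread. *Ddit4* at 22.0 ± 1.52 and *Egln1* at 21.6 ± 0.650 were also within their spread of each other, followed by *Ndrg1* at 15.9 ± 4.22 and *Hif1a* at 11.2 ± 4.07. *Arnt* was at 6.19 ± 0.819 and *Egln3* at 4.73 ± 0.688. *Ankrd37*, at 0.418 ± 0.0956, and *Hif3a*, at 0.101 ± 0.0365, rested on few counts, 6 to 20 and 3 to 26 per library over all 12 libraries. At 8°C in wild-type mice *Egln1* reached 62.1 ± 3.93 CPM per kilobase, above *Ddit4* at 23.2 ± 7.02 and below *Vegfa* at 93.7 ± 5.87.

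**Figure D1:**
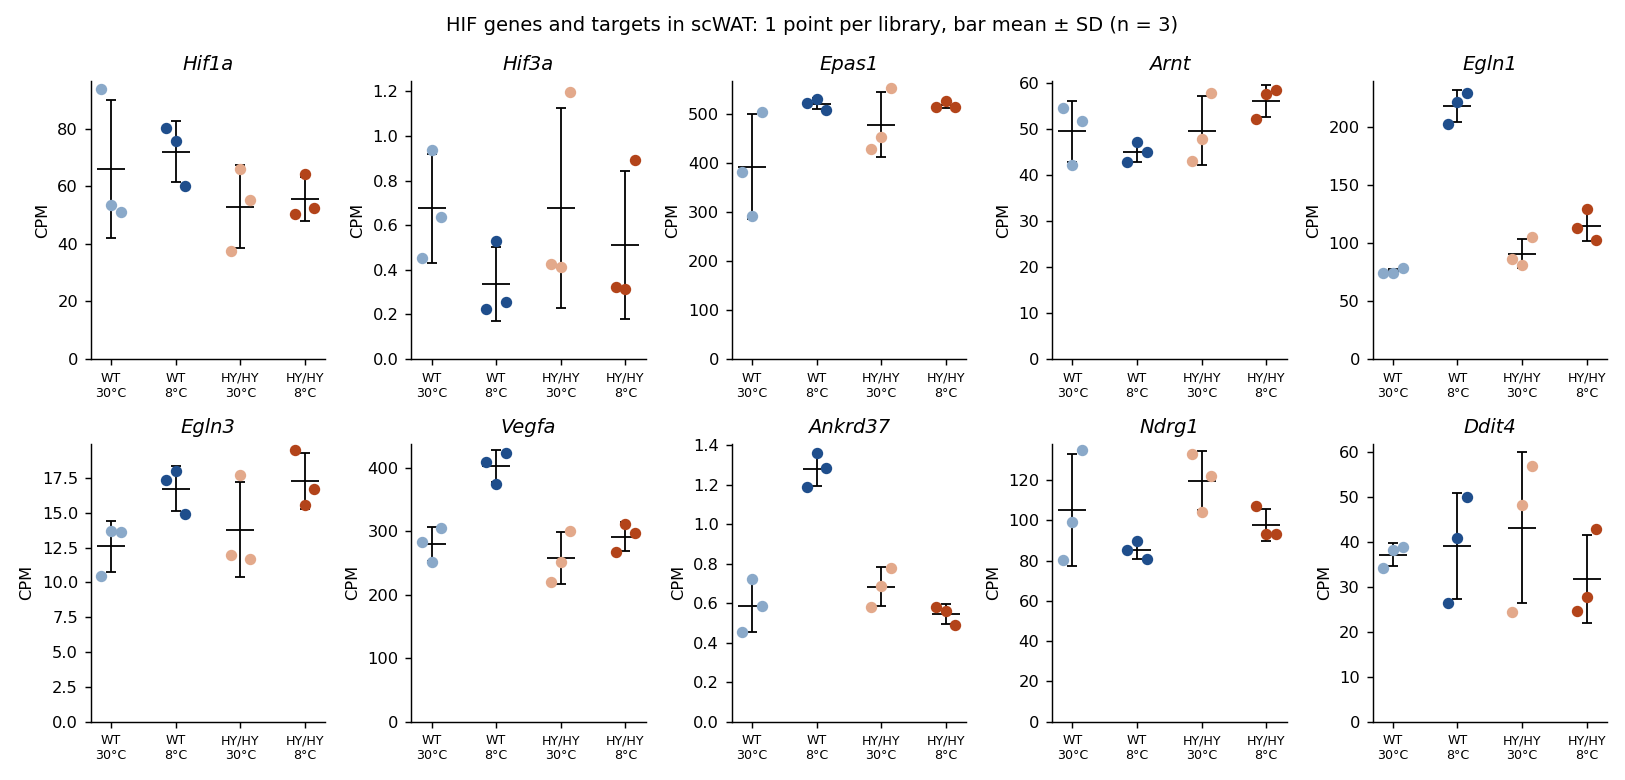
Level of each member in CPM (y axis, from 0) in every library of the 4 groups (x axis, HY/HY marks the mutants). Points are libraries and bars are mean ± SD of 3; *Egln1*, *Ankrd37* and *Vegfa* in wild-type mice at 8°C lie above all other libraries.

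To see how the HIF genes respond to a week of cold, 8°C was compared with 30°C in wild-type mice. *Egln1*, the main oxygen-sensing hydroxylase of HIF alpha subunits, rose 2.88-fold, and *Ankrd37*, an ankyrin-repeat protein known as a HIF target, rose 2.15-fold, while none of the 3 alpha subunits nor *Arnt* passed the limits. To be called, a gene needed an adjusted p (edgeR's quasi-likelihood test, Benjamini-Hochberg adjustment over all genes tested) under 0.05 and a fold above 1.5 or below 0.67. By these limits 2 of 10 members were higher and 0 lower, where 10.3% of all genes tested were called higher and 6.93% lower. The median log2 fold change of the 10 members was 0.27, against -0.07 over all genes.

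*Egln1* was at 74.6, 74.3 and 78.4 CPM in the 3 wild-type libraries of 30°C and at 203, 222 and 229.7 at 8°C. In mutants it was at 86.4, 81.2 and 106 CPM at 30°C and at 113, 129.5 and 103 at 8°C. The wild-type groups were far apart, whereas the groups of mutants overlapped, and the latter at 8°C lay between the wild-type groups. The log2 fold change with cold in wild-type mice was 1.53 (SE 0.13, adjusted p = 2.3e-05). It stayed between 1.19 and 1.59 over 20 other ways of processing, with adjusted p of at most 4.1e-04. The exact permutation test of 3 libraries against 3 gave the smallest p it can, 0.1.

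In bulk tissue, more RNA per cell and more cells of a type cannot be told apart, and markers of cell types moved with cold. All 10 markers of thermogenic adipocytes, the heat-producing fat cells, were called higher in wild-type mice at 8°C, where their sum was 9343 to 10498 CPM against 77.9 to 202 at 30°C. In mutants the sum was 66.4 to 242 CPM at 30°C and 564 to 1849 at 8°C. *Ucp1*, the uncoupling protein that defines these cells, had means of 2.02, 5484, 1.23 and 575 CPM in wild-type mice at 30°C and 8°C and in mutants at 30°C and 8°C. In wild-type mice summed endothelial markers were at 663 to 1001 CPM at 30°C and at 1184 to 1372 at 8°C, with 3 of 9 called higher, and at 872 to 1160 and 798 to 1048 in mutants. In wild-type mice mitochondrial DNA gave 11.4% to 13.5% of counts at 30°C and 16% to 18.0% at 8°C, and 9.32% to 16.8% and 12.2% to 12.9% in mutants. Mammary epithelium markers summed to 3369 to 5380 CPM at 30°C and to 2130 to 2417 at 8°C in wild-type mice, with 2 of 8 called lower, and to 874 to 2328 and 1297 to 2084 in mutants. Macrophage markers summed to 222 to 233 CPM and to 180.1 to 187 in wild-type mice, and to 246 to 435 and 271 to 379 in mutants, with 2 of 7 called higher in mutants at 8°C. The part of these in the changes of *Egln1*, *Ankrd37* and *Vegfa* was not tested.

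**Figure D2:**
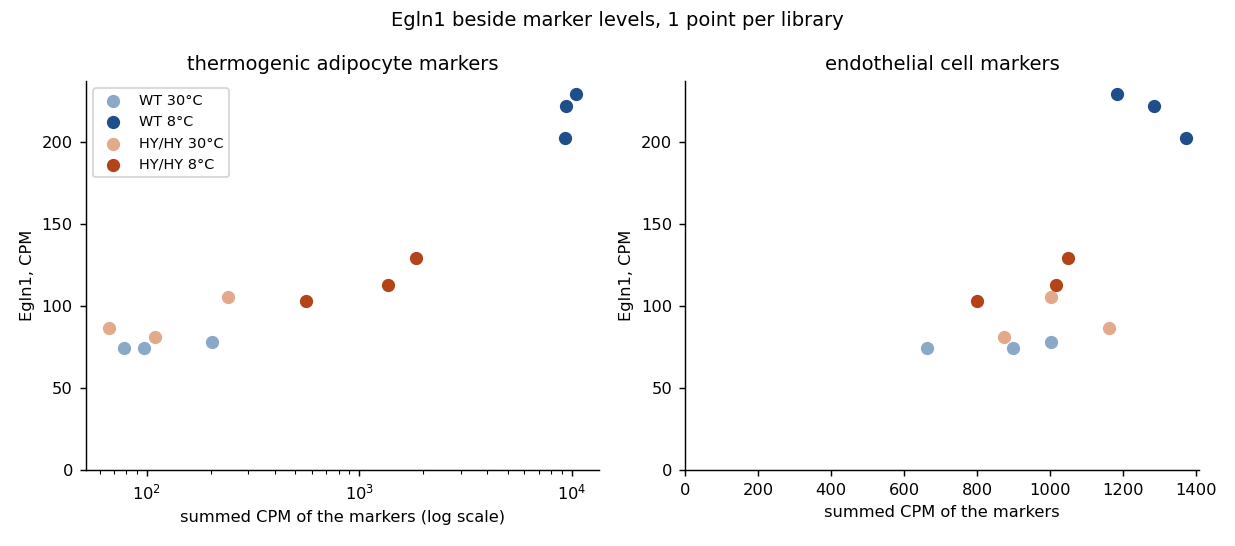
*Egln1* (y axis, CPM, from 0) against the summed CPM of 10 thermogenic adipocyte markers (left, log scale) and of 9 endothelial markers (right), 1 point per library. Wild-type libraries of 8°C are highest on every axis, and along the thermogenic axis, but not the endothelial, the mutants of 8°C lie between them and the 30°C libraries.

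*Ankrd37* was counted 10, 20 and 11 times in the wild-type libraries of 30°C and 16, 18 and 20 times in the smaller libraries of 8°C. Scaled to depth these were 0.453, 0.722 and 0.585 CPM at 30°C and 1.19, 1.36 and 1.28 at 8°C, without overlap. In mutants it was at 0.581, 0.689 and 0.780 CPM at 30°C and at 0.583, 0.563 and 0.487 at 8°C. The log2 fold change in wild-type mice was 1.10 (SE 0.27, edgeR adjusted p = 0.0132). The call was lost without the first library of wild-type mice at 30°C (adjusted p = 0.0536) or the second at 8°C (adjusted p = 0.0507), when pairs of both strands were counted (adjusted p = 0.0701), and with no filter on low counts (adjusted p = 0.0666). It held in 15 of 19 other ways of processing. Up to 25% of its pairs in a library were on the opposite strand.

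*Vegfa*, the growth factor for blood vessels, was at 283, 251 and 306 CPM in wild-type mice at 30°C and at 408, 374 and 424 at 8°C. In mutants it was at 219.5, 252 and 301 CPM at 30°C and at 267, 311 and 297 at 8°C. The wild-type groups did not overlap and those of mutants did. The log2 fold change in wild-type mice was 0.52 (SE 0.14, edgeR adjusted p = 0.0196), a 1.44-fold difference that lies under the fold limit of 1.5. With library totals in place of TMM it was 0.19 (adjusted p = 0.191), and without the second library of 30°C, which held the muscle markers, 0.45 (adjusted p = 0.0811).

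The scaling matters for such moderate differences. With TMM 1707 genes were called higher and 1147 lower in wild-type mice at 8°C, and with library totals 1057 and 4144, as the all-gene median log2 fold change moved from -0.07 to -0.41. Relative to that median *Vegfa* was therefore about as far above the bulk of genes under both scalings. *Egln1* and *Ankrd37* were called under both, with log2 fold changes of 1.19 (adjusted p = 7.3e-05) and 0.76 (adjusted p = 0.0495) by library totals. That scaling also put *Ndrg1* past the limits, as lower at 8°C (log2 fold change -0.62, adjusted p = 0.0139), whereas *Arnt*, at -0.47 (adjusted p = 0.00578), stayed under the fold limit.

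Among the factors themselves, *Epas1* was at 380.2, 292 and 504 CPM in wild-type mice at 30°C and at 522, 530.5 and 508 at 8°C. The groups did not overlap, but the lowest and the highest library of 30°C differed more than the groups, and the log2 fold change of 0.41 (SE 0.18) did not pass (edgeR adjusted p = 0.118). Without the third library of 30°C it was 0.63 (adjusted p = 0.0152), and *Epas1* and *Vegfa* were then both called, for 4 members in all. *Hif1a*, the gene for HIF-1α, was at 93.7, 53.4 and 51.1 CPM at 30°C and at 80.3, 75.9 and 59.98 at 8°C, with overlapping groups and a log2 fold change of 0.12 (SE 0.25). *Arnt* was at 54.7, 42.1 and 51.8 CPM and then at 43.0, 47.1 and 45.0, a log2 fold change of -0.14 (SE 0.13). *Hif3a*, whose product can restrain the other factors, was at 0.453, 0.938 and 0.638 CPM at 30°C and 0.223, 0.528 and 0.257 at 8°C, and its 95% interval of -2.34 to 0.29 on the log2 scale allows anything from a large fall to little change.

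The other hydroxylase, *Egln3*, was at 10.47, 13.7 and 13.6 CPM in wild-type mice at 30°C and at 17.3, 18.0 and 14.9 at 8°C. The groups did not overlap, and the log2 fold change was 0.41 (SE 0.18, edgeR adjusted p = 0.118). *Ndrg1*, a stress-responsive gene induced by hypoxia in many cells, was at 80.4, 99.3 and 135 CPM and then at 85.3, 89.9 and 80.6, a log2 fold change of -0.30 (SE 0.17, adjusted p = 0.212). *Ddit4*, which encodes the mTORC1 inhibitor REDD1, was at 34.2, 38.3 and 39.0 CPM and then at 26.5, 41.0 and 49.97, a log2 fold change of 0.08 (SE 0.31). Both overlapped between the temperatures.

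In mutants 0 of 10 members were called with cold by edgeR and 0 by DESeq2, and 1, *Egln1*, had an unadjusted p under 0.05. Over all genes 0.181% were called higher and 0.0665% lower. These 30 and 11 genes became 461 and 203 without the third library of mutants at 30°C, 211 and 91 with DESeq2, and 0 and 0 with the compared libraries alone. With the replicate number as a replicate block, fitted over all 12 libraries and not in mutants alone, they became 128 and 32. Then 0 members were called, and *Egln1* had an edgeR adjusted p of 0.190. *Egln1* had a log2 fold change of 0.34 (95% interval 0.07 to 0.61, edgeR adjusted p = 0.245), and without the third library of 30°C, the one with the high share of mitochondrial DNA, of 0.46 (adjusted p = 0.0530). *Vegfa* had 0.18 (95% interval -0.12 to 0.48) and *Ankrd37* -0.31 (95% interval -0.95 to 0.32), and both intervals include 0. *Hif1a* was at 37.4, 66.0 and 55.3 CPM at 30°C and at 50.3, 64.4 and 52.3 at 8°C. *Epas1* was at 428, 452 and 553 CPM and then at 513, 525 and 514, within the range of 30°C. The median over the members was 0.10, against -0.01 over all genes.

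The remaining members also overlapped between the temperatures in mutants. *Arnt* was at 43.2, 48.0 and 57.9 CPM at 30°C and at 52.2, 57.8 and 58.5 at 8°C, a log2 fold change of 0.18 (SE 0.13). *Egln3* was at 11.9, 17.7 and 11.7 CPM and then at 19.5, 15.6 and 16.7, a log2 fold change of 0.32 (SE 0.18), of a size close to the 0.41 of wild-type mice. For this paralogue of *Egln1* the difference between the responses of the genotypes was -0.09 (95% interval -0.64 to 0.47). *Ndrg1* was at 133, 104 and 122 CPM and then at 107, 93.0 and 93.0, a log2 fold change of -0.29 (SE 0.17). *Ddit4* varied widely between mice of a group, at 24.5, 48.2 and 56.9 CPM and then at 24.5, 27.8 and 42.9. *Hif3a*, at 5 to 23 counts per library, was at 0.426, 0.413 and 1.196 CPM and then at 0.324, 0.313 and 0.893.

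Whether the cold response in bulk tissue differs between the genotypes was tested as the response of mutants minus that of wild-type mice. By an adjusted p under 0.05 alone 1 of 10 members was lower, *Egln1*, and 0 were higher, where 2.07% of all genes were lower and 0.169% higher. For *Egln1* the difference between the responses was -1.19 (SE 0.18, edgeR adjusted p = 0.0113), and it kept an adjusted p of at most 0.0440 over 19 other ways of processing, at -1.28 to -0.96. *Ankrd37* had -1.41 (SE 0.40, adjusted p = 0.0984) and *Vegfa* -0.34 (SE 0.20, adjusted p = 0.447), so for neither was a difference between the genotypes' responses shown. For the other members the differences ranged from -0.52 in *Ddit4* to 0.62 in *Hif3a*, with adjusted p from 0.442 upward.

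**Figure D3:**
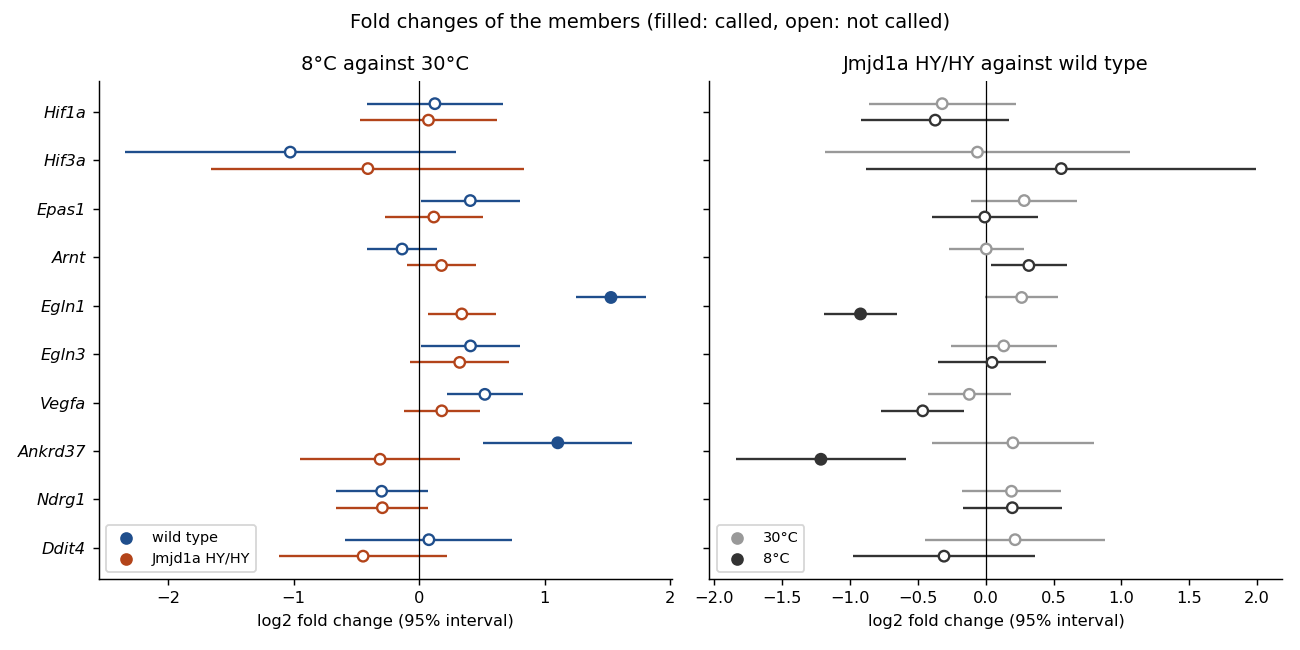
Log2 fold change (x axis, point) with its 95% interval (line) of each member for 8°C against 30°C in each genotype (left) and for mutants against wild-type mice per temperature (right), filled where called. *Egln1* and *Ankrd37* are filled for wild-type mice on the left and for 8°C on the right.

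Between the genotypes at 30°C 0 of 10 members were called by edgeR and 0 by DESeq2, and 0 had an unadjusted p under 0.05. Over all genes 0.562% were called higher in mutants and 0.441% lower. *Egln1* was the only member whose groups did not overlap, at 81.2 to 106 CPM in mutants and 74.3 to 78.4 in wild-type mice, with a log2 difference of 0.27 (95% interval -0.0048 to 0.54, adjusted p = 0.276). *Hif1a* had a log2 difference of -0.32 (95% interval -0.86 to 0.22) and *Epas1* of 0.28 (95% interval -0.11 to 0.68).

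At 8°C 2 of 10 members were lower in mutants, *Egln1* and *Ankrd37*, and 0 were higher, where 4.42% of all genes were called lower and 1.51% higher. *Egln1* was 0.528 times the wild-type level, a log2 difference of -0.92 (SE 0.12, edgeR adjusted p = 0.00210), with an adjusted p of at most 0.0184 over 20 other ways of processing. *Ankrd37* was 0.431 times the wild-type level, a log2 difference of -1.21 (SE 0.29, adjusted p = 0.0265). That call was lost without any 1 of the 6 libraries of 8°C, with adjusted p of 0.0641 to 0.111, and held in 9 of 19 other ways of processing. *Vegfa* had a log2 difference of -0.46 (SE 0.14, adjusted p = 0.0683), with every wild-type library of 8°C above every library of mutants.

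*Arnt* went the other way at 8°C, at 52.2, 57.8 and 58.5 CPM in mutants against 43.0, 47.1 and 45.0 in wild-type mice. The groups did not overlap, and the log2 difference of 0.32 (SE 0.13) did not pass (edgeR adjusted p = 0.162). *Ndrg1* also did not overlap at 8°C, at 107, 93.0 and 93.0 CPM against 85.3, 89.9 and 80.6, with a log2 difference of 0.20 (SE 0.17, adjusted p = 0.542). *Epas1* had close means of 518 and 520.1 CPM in mutants and wild-type mice, with a log2 difference of -0.01 (95% interval -0.40 to 0.39). *Hif1a* had -0.37 (95% interval -0.92 to 0.17), *Egln3* 0.05 (95% interval -0.35 to 0.44) and *Ddit4* -0.31 (95% interval -0.98 to 0.37), all with overlapping groups.

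The genes whose pattern over the 12 libraries was most like that of a called member were found by the root mean square distance between centred log2 CPM. For *Egln1*, whose own spread by this measure was 0.588, they were *Usmg5* at 0.118, *Tmem14c* at 0.119 and *Ndufb4* at 0.121. For *Ankrd37*, with a spread of 0.459, they were *Pgls* at 0.161, *Fastk* at 0.172 and *Pcbd2* at 0.180. These distances are a description and carry no test.

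The members were set beside a wider list of 90 genes of the HIF pathway, the members included, of which 87 were tested. In wild-type mice 21 of the 87 were called higher with cold and 4 lower, where 10.3% of all genes were called higher and 6.93% lower. Their median log2 fold change was 0.18, against -0.07 over all genes. Of the 17 genes of glucose uptake and glycolysis 11 were higher and 2 lower, with a median of 1.00. The 4 largest rises were those of *Pgam1* (log2 fold change 2.09, SE 0.16), *Eno1* (2.08, SE 0.27), *Gapdh* (1.92, SE 0.24) and *Pfkl* (1.92, SE 0.27), which encode phosphoglycerate mutase, enolase, glyceraldehyde-3-phosphate dehydrogenase and the liver form of phosphofructokinase. *Eno1* rose from 618 ± 132 to 2617 ± 230 CPM (mean ± SD, n = 3) and *Pgam1* from 47.2 ± 3.63 to 201 ± 30.6. Several glycolytic genes have near-identical pseudogenes, and the counts leave out pairs with several alignments, so their levels are uncertain.

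The glucose transporter gene *Slc2a1* (log2 fold change -0.82, SE 0.25) and the aldolase gene *Aldoc* (-0.999, SE 0.32), listed with glycolysis, fell. Both calls were lost without the second library of wild-type mice at 30°C, with adjusted p of 0.138 and 0.142. The other 2 fallers were *Cited4* (-1.69, SE 0.40), which encodes a partner of the coactivators CBP and p300, and the clock repressor gene *Bhlhe41* (-1.07, SE 0.26). These calls were lost without the third and the first library of wild-type mice at 8°C, with edgeR adjusted p of 0.0501 and 0.0564. Outside glycolysis, 10 genes were called higher, 2 of them members, and of the other 8 *Eloc*, a subunit of the VHL ligase, and *Kdr* and *Nrp2*, receptors for VEGF ligands, are named after their values were seen. They are not simply the largest rises of the 8. The mean of the mitochondrial protein gene *Higd1a* went from 66.1 to 176 CPM and that of the iron handling gene *Tfrc* from 35.4 to 89.2. That of *Eloc* went from 52.0 to 84.9 CPM. Of the 12 genes of oxygen sensing and HIF turnover 2 were higher, *Egln1* and *Eloc*, and of the 10 VEGF ligands and receptors 2 were higher, *Kdr* and *Nrp2*, though *Kdr* was not with library totals (adjusted p = 0.0631). Over all genes 10.3% were called higher and 6.93% lower, so in lists this short such counts do not stand apart from that share. *Kdm3a*, itself known as a HIF target, had a log2 fold change of -0.31 (SE 0.16, edgeR adjusted p = 0.186), and 0 of the 5 demethylase genes listed were called.

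In mutants 0 of the 87 were called with cold by edgeR and 1 with the replicate block, 12 had an unadjusted p under 0.05 and 2 were called by DESeq2. Over all genes edgeR called 0.181% higher and 0.0665% lower. The 17 glycolytic genes had a median log2 fold change of -0.01, with 8 above 0. By the edgeR test 3 of them had an unadjusted p under 0.05, all higher at 8°C. *Pfkfb3*, named after its values were seen, was at 334 ± 94.5 CPM at 30°C and 667 ± 54.3 at 8°C (mean ± SD, n = 3). In wild-type mice it was at 334 ± 48.6 and 543 ± 110 CPM. *Eno1* was at 1214 ± 505 CPM at 30°C and 1068 ± 152 at 8°C (mean ± SD, n = 3), and *Pgam1* at 63.7 ± 12.2 and 107 ± 11.96. The mean of *Eno1* at 30°C in mutants was thus above that in wild-type mice, with a wide spread. Between the genotypes at 30°C the 17 glycolytic genes had a median log2 difference of 0.40, with 13 above 0. None was called, and by the edgeR test 11 had an unadjusted p under 0.05, 7 higher in mutants and 4 lower. The difference between the responses, given next, takes in these levels of 30°C as well as those of 8°C.

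The difference between the responses passed for 7 of the 87, all of them lower in mutants: *Egln1* and 6 glycolytic genes. Over all genes 2.07% were lower and 0.169% higher. The largest were *Eno1* (-2.27, SE 0.38), *Pfkl* (-2.08, SE 0.37), *Gapdh* (-1.96, SE 0.33) and *Aldoa* (-1.65, SE 0.33), with edgeR adjusted p from 0.0135 to 0.0300. For all 4 the adjusted p went above 0.05 without the first library of wild-type mice at 30°C, to between 0.0541 and 0.0904. Of these 7, *Egln1* alone kept its call under every alternative run.

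**Figure D4:**
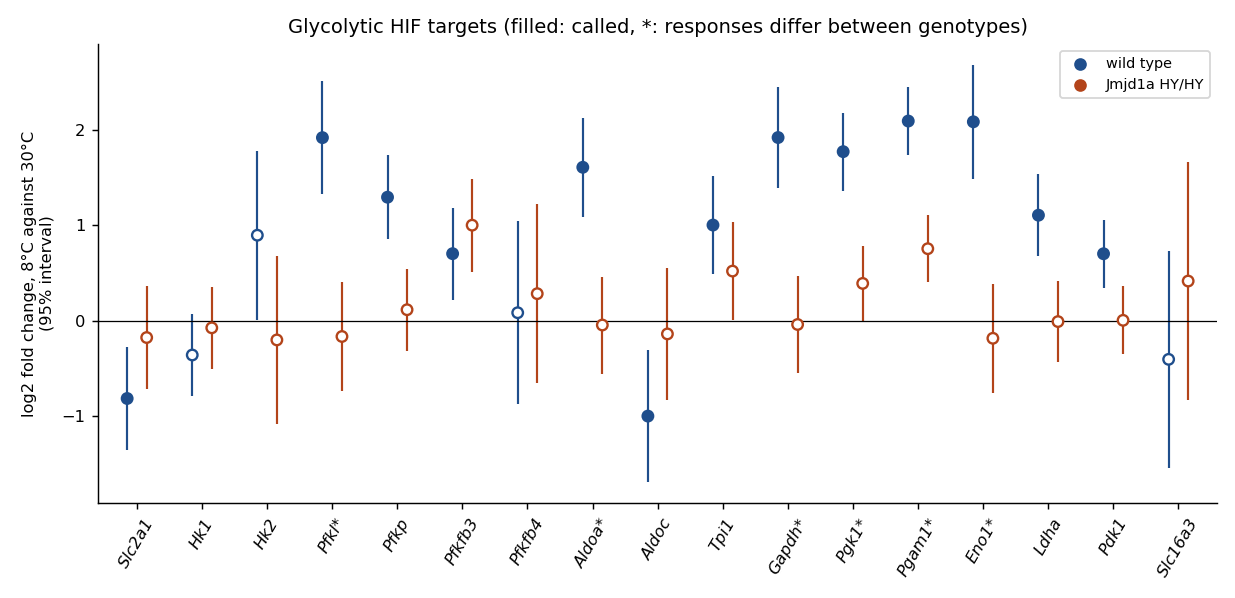
Log2 fold change at 8°C against 30°C (y axis, point) with its 95% interval (line) of the 17 glycolytic HIF targets (x axis) in each genotype, filled where called and starred where the responses of the genotypes differ. In wild-type mice 13 points are filled, 11 above 0 and 2 below, and in mutants none is.

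At 8°C 9 of the 87 were lower in mutants and 3 higher, where 4.42% of all genes were called lower and 1.51% higher. The lower ones were *Egln1*, *Ankrd37*, 5 glycolytic genes led by *Pfkl* (log2 difference -1.38, SE 0.27), *Eno1* (-1.29, SE 0.27), *Gapdh* (-1.08, SE 0.24) and *Pgk1* (-0.99, SE 0.18), and the mitochondrial protein genes *Fam162a* and *Higd1a*, the last pair named after their values were seen. The higher ones were *Cited2* (1.05, SE 0.23), whose product competes with HIF alpha subunits for CBP and p300, the lymphatic growth factor gene *Vegfd* (0.88, SE 0.24) and the collagen cross-linking enzyme gene *Lox* (0.85, SE 0.21). *Lox* was also the 1 gene of the 87 called at 30°C, at 36.2 ± 4.89 CPM in mutants against 13.9 ± 3.01 in wild-type mice (mean ± SD, n = 3, log2 difference 1.38, SE 0.21). Of all genes 0.562% were called higher at 30°C and 0.441% lower. Over the other ways of processing the highest edgeR adjusted p at 8°C was 0.0605 for *Pfkl*, 0.0756 for *Eno1*, 0.0797 for *Gapdh*, 0.0506 for *Pgk1*, 0.123 for *Higd1a*, 0.0815 for *Cited2*, 0.174 for *Vegfd* and 0.122 for *Lox*, each reached with 1 library of mutants at 8°C left out, so each of these calls was lost. The library was the first for *Gapdh*, *Cited2* and *Lox*, the second for *Higd1a* and the third for the other 4. *Pgam1*, also among the 5 glycolytic genes, kept an adjusted p of at most 0.0438, at log2 differences of -1.01 to -0.77. *Fam162a* kept one of at most 0.0426, at -0.74 to -0.576, the last of which misses the fold limit. At 30°C *Lox* reached 0.138 with the compared libraries alone. The comparisons at 8°C and the cold response share the wild-type libraries of 8°C, so the lower levels there and the rise in wild-type mice are not independent.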

How the data were processed

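The members were chosen by symbol, and they and the gene lists were chosen with earlier results of these data known. Libraries were made with TruSeq and sequenced as paired reads. Per the labels and the study's methods, the authors used FastQC and fastp, aligned the pairs with STAR to mm10 with GENCODE M25 annotation, and deposited unnormalised counts of read pairs per gene, in 3 columns, unstranded and for either strand. The 3 libraries of a group were from separate mice. The strand column with nearly all pairs was used, at 13592629 to 26352081 pairs per library. The 4 lines that name no gene, with 55.8% to 63.5% of the pairs, were left out, and 32589 IDs were matched to a symbol. Genes were filtered by filterByExpr, scaled by TMM and fitted with edgeR 4.0.16 in R 4.3.3, with 1 mean per group over all 12 libraries (8 residual degrees of freedom) and a prior count of 2 for log2 CPM. Limits were an adjusted p of 0.05 and folds of 1.5 and 0.67, and for the difference between the responses p alone. The 95% intervals are from the fit. The fit was tested on simulated data.

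Named were the members, *Kdm3a*, up to 4 called risers and 4 called fallers of largest change among the other listed pathway genes in each comparison, and the 3 genes nearest to each called member. The pathway lists were the HIF subunits and partners, oxygen sensing and HIF turnover, coactivators and competitors, demethylases, VEGF ligands and receptors, and 5 lists of targets (glycolytic, vascular, survival and growth, matrix, acid and iron handling). Alternatives were DESeq2 1.42.0, library totals, no mitochondrial DNA genes, no filter, at least 10 counts in every library, the compared libraries alone, both strands, no fold limit, each library left out, and the replicate number as a block. Counts over all genes under these were added after the data were seen. For 30°C against 8°C in mutants, the deviations of same-number libraries from their group means correlated at 0.112, 0.199 and 0.303, all above 0.1. Values with a replicate block are therefore given beside that result, whose main values stay unpaired. The block was fitted over all 12 libraries, wild-type ones included, and no fit paired the mutants alone. A pairing by number would come from the data, as the labels do not say what a number marks. Of the other marker lists, erythrocyte markers summed to 96.1 to 348 CPM and lymph node lymphocyte markers to 4.58 to 18.1.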

Additional observations from a re-analysis of the deposited data

Results flagged for a closer look

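For *Egln1* the response to cold in *Jmjd1a* HY/HY mice minus that in wild-type animals was -1.19 on the log2 scale (edgeR adjusted p = 0.0113). It is listed because the effect of cold differed between wild-type and *Jmjd1a* HY/HY mice by a test of the difference itself. *Egln1* was higher at 8°C in all 3 wild-type libraries than in any of 30°C, and in the mutants the groups overlapped. No outlier test was run, as the groups hold 3 libraries each.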

How the results depend on the processing

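For 50 log2 fold changes of members, 913 recomputed values kept their direction and their side of the limits. A call was gained in 3, a call was lost in 14, and the sign turned in 47. For 15 counts, which have no direction, 216 recomputed values were equal or close to the main count. Another 28 were rated as larger and 65 as smaller. The cause of the changes below was not tested, unless the construction shows it. *Egln1* kept its 3 calls throughout, and *Ankrd37* lost its calls where stated in the report. It did not reach 10 counts in every library, so it was not tested under that filter.

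The members called in wild-type mice with cold (2) became 1 with counts of both strands, with no filter and with a filter of at least 10 counts everywhere, 3 with library totals, and 1 to 4 with a library left out. The members called between genotypes at 8°C (2) became 1 with DESeq2, library totals, no filter, at least 10 counts in every library and both strands, and 1 to 2 with a library left out. Over all genes the calls with cold in wild-type mice, 1707 higher and 1147 lower, became 1741 and 1340 with no filter. With library totals they became 1057 and 4144. Between genotypes at 8°C 249 and 731 became 406 and 962 with DESeq2, and 535 and 480 with library totals.

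The pathway genes called with cold in mutants (0) became 2 with DESeq2, 2 without a filter and 0 to 3 with a library left out. Those called between genotypes at 30°C (1) became 9 with DESeq2, 0 with library totals, 4 without a filter, 0 with the compared libraries alone and 0 to 4 with a library left out. Those called at 8°C (12) became 3 to 13 with a library left out. Over all genes the 249 higher and 731 lower at 8°C then became 43 to 408 and 301 to 832. The pathway genes with a difference between the responses (7) became 12 with DESeq2, 11 with at least 10 counts in every library and 1 to 11 with a library left out. Calls over all genes moved as well. At 30°C 93 higher and 73 lower became 367 and 316 with DESeq2 and 20 and 22 with library totals. They became 284 and 283 without a filter and 0 and 0 with the compared libraries alone. For the difference between the responses 28 higher and 342 lower became 95 and 712 with DESeq2. With at least 10 counts in every library they became 28 and 381. With cold in mutants 30 and 11 became 211 and 91 with DESeq2 and 101 and 49 without a filter.

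With the replicate number as a replicate block, pathway genes called became 1 with cold in mutants, 3 at 30°C and 11 for the difference between the responses, and no count of members called changed. Over all genes the block gave 128 higher and 32 lower, 215 and 304, and 57 and 469 in these comparisons. No main result pairs the libraries by number. Of the 18 same-number pairs 11 had correlated deviations over 0.1 (-0.07 to 0.35), and a library correlated best with its own number in 23 of 36 cases.

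The sign turned 47 times, always in values of members that had not been called. With library totals the log2 fold change with cold in wild-type mice turned to -0.22 for *Hif1a* and -0.27 for *Ddit4*, and in mutants to -0.045 for *Hif1a* and -0.00050 for *Epas1*. The genotype difference turned to -0.077 for *Arnt* at 30°C and 0.13 for *Epas1* at 8°C, and the difference between the responses to 0.17 for *Hif1a* and 0.11 for *Egln3*. With the compared libraries alone *Epas1* at 8°C was at 0.0061. The response difference of *Ndrg1* turned to -0.020 with DESeq2, -0.0018 with at least 10 counts everywhere, -0.0082 unfiltered and -0.0015 under the replicate block, which also turned *Arnt* at 30°C to -0.0015.

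With a library left out, the log2 fold change with cold in wild-type mice ran from -0.028 to 0.47 for *Hif1a* and from -0.14 to 0.30 for *Ddit4*. In mutants it ran from -0.12 to 0.27 for *Hif1a* and from -1.03 to 0.23 for *Hif3a*. The genotype difference at 30°C ran from -0.51 to 0.019 for *Hif1a*, -0.69 to 0.27 for *Hif3a*, -0.11 to 0.097 for *Arnt*, -0.090 to 0.24 for *Egln3* and -0.022 to 0.50 for *Ddit4*. At 8°C it ran from -0.060 to 1.02 for *Hif3a*, -0.017 to 0.0085 for *Epas1* and -0.047 to 0.12 for *Egln3*. The difference between the responses ran from -0.39 to 0.14 for *Hif1a*, -0.013 to 1.25 for *Hif3a*, -0.19 to 0.14 for *Egln3* and -0.22 to 0.16 for *Ndrg1*.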
